A study of Macaca fascicularis with 2 samples.

Results

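Secreted inhibitors of WNT signalling were described by their reads in single cells of cartilage and intervertebral disc of the cynomolgus monkey. They were SFRP1, SFRP2, SFRP4, SFRP5, FRZB, WIF1, DKK1, DKK2 and DKK3, chosen by name, and all 9 were among the 21371 genes counted. Cells of the nucleus pulposus (NP), the gelatinous core of the disc, and of the articular cartilage (AC) of 2 wild type males aged 3 years went together into 1 library, made by TAS-seq, a bead-based method that amplifies the messenger RNA of single cells. AC3, NP3 and AC4 are the 3 tissue samples that the labels name for this pool, while the cells carried 4 barcode tags, A951, A952, A953 and A954. A quality plot in the study names 4 samples for the cells of this library, AC3, NP4, AC4 and NP3, so a second NP sample, from the monkey of AC4, may be in the pool, although the study's sample list records NP4 under another series. No source used here pairs a tag with a tissue or a monkey, so each tag is given by its own value, the tags are not replicates, and none is called AC or NP.

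Of 5674 cells with a single tag, 5653 were kept, with 1341305522 reads in all. The median cell had 198432 reads from 3827 genes. Cells with at least 5 reads each of KRT19, a keratin, and TBXT, the notochord transcription factor brachyury, were taken as notochordal cells, the NP cells that descend from the embryonic notochord, and numbered 310. Cells with at least 100 reads per 1000000 reads (rpm) each of ASPN and CILP, which encode matrix proteins of the small leucine-rich and cartilage intermediate layer families, numbered 660. The other 4683 cells met neither rule, and no cell met both. Notochordal cells were unevenly spread, with 67 in A951, 236 in A952, 5 in A953 and 2 in A954, and values for the latter 2 tags rest on almost no cells. ASPN and CILP positive cells numbered 36, 38, 220 and 366 in the same order, and the other cells 892, 851, 1152 and 1788. The median depth was 186370 reads in notochordal cells, 271695 in ASPN and CILP positive cells and 191905 in other cells.

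The class names were checked with genes outside the rules. In notochordal cells the hedgehog ligand SHH was at 98.7 rpm, the cadherin CDH2 at 120 rpm and the adhesion molecule NCAM1 at 506 rpm, against 0.937, 1.22 and 27.6 rpm in other cells, whereas NOTO and FOXA2, transcription factors of the early notochord, stood at 0.0151 and 0.908 rpm, under their 0.0561 and 6.22 rpm in other cells. Of 7 chondrocyte markers compared, 5 were lower in notochordal than in other cells by more than 2-fold, as were 13.9% of all genes. The other 2 were higher by more than 2-fold, as were 25.2% of all genes. These were SOX9 and the cartilage proteoglycan ACAN, the latter at 14440 against 4268 rpm. KRT8, KRT18 and CD24 were not analysed here. The other cells had 21617 rpm of COL2A1, the collagen that defines hyaline cartilage, against 1269 rpm in notochordal cells. ASPN and CILP positive cells had 12068 rpm of COL2A1. They had 1803 rpm of CRTAC1 and 815 rpm of LUM, against 473 and 197 rpm in other cells. Summed over 7 fibrocartilage and superficial zone markers, the 5 notochordal cells of A953 had 18969 rpm, near the 18605 rpm of its other cells. Notochordal cells of A951 and A952 had 1613 and 1159 rpm. With a median of 494207 reads and 6612 genes, the cells of A953 may be mixed, and their class name is uncertain. Immune markers summed to 28.1, 26.0 and 22.8 rpm over 7 genes in notochordal, ASPN and CILP positive and other cells, CD68 giving more of the reads than any other, and endothelial and mural markers to 11.5, 5.66 and 5.92 rpm over 6 genes, RGS5 giving more of the reads than any other.

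WNT proteins signal by binding a Frizzled receptor together with the co-receptors LRP5 and LRP6, which stabilizes beta-catenin, and they also act through ROR and RYK receptors. The SFRP proteins and FRZB carry a Frizzled-like domain and WIF1 a WNT-binding domain of its own, and both kinds bind WNT proteins outside the cell. The DKK proteins DKK1 and DKK2 bind LRP5 and LRP6 instead, and DKK3 is a divergent member of that family whose role in WNT signalling is less settled. FRZB was isolated from cartilage, and several of these inhibitors are known from chondrocytes of the joint surface and the growth plate.

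Levels are given as the reads of a gene over all reads of the cells of a class, in rpm, and never compared between genes, since reads depend on gene length. With 1 library there was no test between classes. The intervals are exact 95% Poisson intervals for reads and Clopper-Pearson intervals for shares of cells, and they cover counting error only. Reads were counted without molecular identifiers, so copies made by PCR are in them. A difference past 2-fold was the fixed rule of size, and its frequency over the 10926 genes with at least 1 rpm is given as background. The 1 rpm limit was taken over all cells together, so a gene read mainly in notochordal cells could fall under it. How often the tags of different classes do not overlap was not computed over all genes, and nothing is read from such a separation.

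Notochordal cells had lower levels of most of the inhibitors compared and a higher level of DKK3. Of the 8 with at least 1 rpm over all cells, 6 were past 2-fold lower in notochordal than in other cells (SFRP1, SFRP2, SFRP5, FRZB, DKK1 and WIF1), a direction and size found in 13.9% of all genes. Only DKK3 was past 2-fold higher, as were 25.2% of all genes, and DKK2 had nearly the same level in both classes. The median log2 ratio over the 8 was -3.96, beside 0.30 over all genes compared. Relative to that shift of all genes, DKK3 was at 5.14 and FRZB at -1.57 on the log2 scale. With each tag given the same weight the shift was 0.05, and 54.0% in place of 64.5% of the genes past 2-fold were higher. Under a looser rule, at least 5 reads of KRT19 and TBXT together, the log2 ratios were -1.51 for WIF1, -1.78 for SFRP1, -2.31 for SFRP5, -0.99 for FRZB and -5.86 for SFRP2, nearer to 0 than under the rule used, while DKK1 was at -4.02 and DKK3 at 5.50. SFRP4, with 0.485 rpm over all cells, fell under the limit.

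In ASPN and CILP positive cells 6 of the 8 were also past 2-fold lower than in other cells, again SFRP1, SFRP2, SFRP5, FRZB, DKK1 and WIF1, where 6.90% of all genes were, and DKK3 was past 2-fold higher, where 2.23% of all genes were. The median log2 ratio over the 8 was -1.16, beside -0.02 over all genes. The comparison shares its other cells with that of the notochordal cells. It leaned on A954, which held 366 of the 660 cells: without that tag 4 of the 8 were past 2-fold, as SFRP2 (-0.53), DKK1 (-0.70) and WIF1 (-0.94 on the log2 scale) came under the limit.

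**Figure D1:**
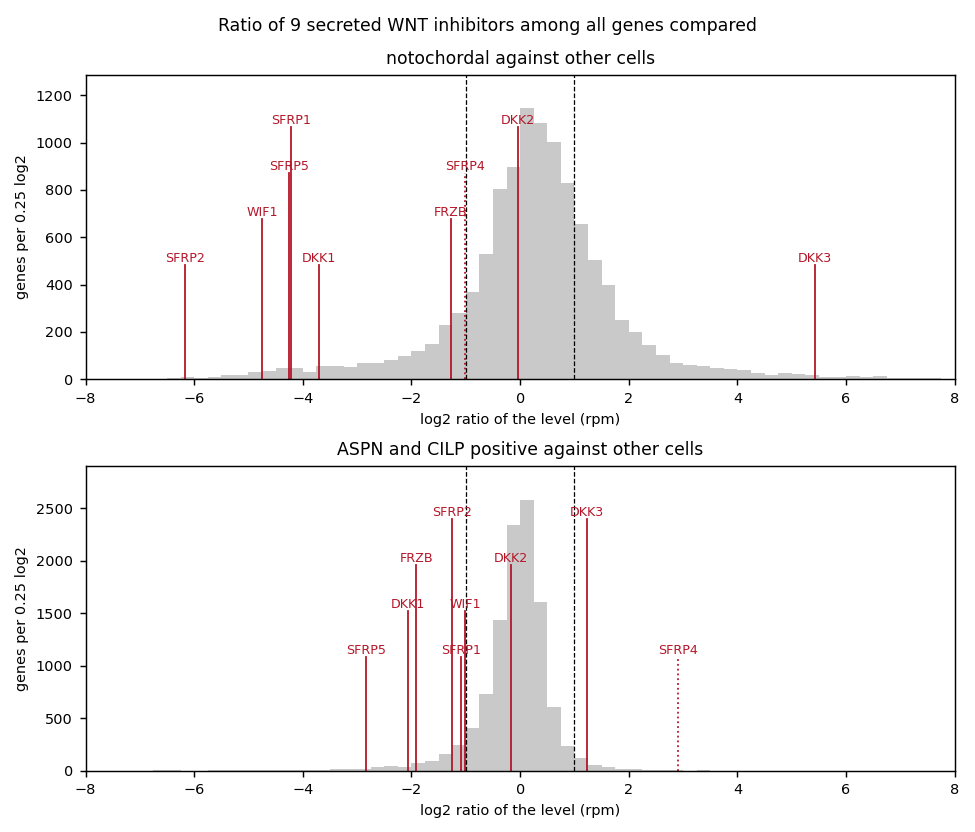
Log2 ratio of the level in notochordal (top) and in ASPN and CILP positive cells (bottom) against other cells; grey bars count the 10926 genes compared per step of the log2 ratio, red lines mark the 9 inhibitors (SFRP4, dotted, was under 1 rpm and is not among the bars) and dashed lines mark 2-fold. DKK3 stands at 5.43 in the top panel, 6 of the 8 inhibitors compared lie left of the 2-fold line, and SFRP1 and WIF1 lie close to that line in the bottom panel.

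FRZB, also called SFRP3, had reads in nearly every cell, at least 1 in 99.4% of notochordal, 98.6% of ASPN and CILP positive and 99.3% of other cells. Its level was 1984 rpm (95% interval, 1982 to 1987) in other cells, 820 rpm (813 to 827) in notochordal cells and 526 rpm (523 to 529) in ASPN and CILP positive cells. At least 5 reads were found in 96.3% of other, 93.2% of notochordal and 91.4% of ASPN and CILP positive cells, and at least 100 rpm in 93.6%, 83.9% and 75.5%. In other cells the tags A951 to A954 had 2517, 2399, 1971 and 1608 rpm, in ASPN and CILP positive cells 770, 687, 550 and 478 rpm, and in notochordal cells 781, 815, 1154 and 730 rpm. No tag of either class reached the lowest tag of the other cells, and how many of all genes separate in this way was not computed. The log2 ratio to other cells was -1.28 in notochordal cells, with -1.69 and -1.56 within A951 and A952, and -1.91 in ASPN and CILP positive cells, with -1.84 to -1.71 within the 4 tags. At least 1000 rpm of FRZB was found in 65.4% of other cells (64.0 to 66.8%), 29.7% of notochordal cells (24.6 to 35.1%) and 14.8% of ASPN and CILP positive cells (12.2 to 17.8%).

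SFRP5, an inhibitor of the same Frizzled-domain family, had 337 rpm in other cells (335 to 338), 47.0 rpm in ASPN and CILP positive cells (46.1 to 48.0) and 17.6 rpm in notochordal cells (16.6 to 18.7). Other cells of A951 to A954 had 434, 393, 408 and 232 rpm, so that A954 was the lowest and the rest lay close together. ASPN and CILP positive cells had 90.8, 44.0, 68.8 and 30.9 rpm, and notochordal cells of A951 and A952 had 37.2 and 13.4 rpm. The ranges of the classes did not overlap over tags with at least 20 cells, apart from notochordal cells of A951 lying above ASPN and CILP positive cells of A954. Some of these values rest on 1 cell, which held 263 of the 454 reads of notochordal cells in A951. In ASPN and CILP positive cells 1 cell held 465 of 861 reads in A951 and 1467 of 3620 in A954. The log2 ratio was -2.84 in ASPN and CILP positive cells (-3.16 to -2.26 within tags) and -4.26 in notochordal cells. SFRP5 reads sat in few cells: 182 cells, 3.89% of the other cells, held 50% of them, whereas 729 cells (15.6%) held 50% of the FRZB reads. At least 100 rpm was found in 26.2% of other cells, against 5.61% of ASPN and CILP positive cells and 1.61% of notochordal cells.

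SFRP1 had 92.9 rpm in other cells (92.3 to 93.5), 44.0 rpm in ASPN and CILP positive cells (43.1 to 44.9) and 4.99 rpm in notochordal cells (4.47 to 5.56). Its level in other cells moved little between the tags, with 94.5, 108, 77.0 and 95.8 rpm in A951 to A954. In ASPN and CILP positive cells A951 had 12.7 rpm, under the 44.9, 41.9 and 47.7 rpm of A952 to A954. Every tag of both classes lay under the lowest tag of the other cells, with a log2 ratio of -1.08 for ASPN and CILP positive cells and -4.22 for notochordal cells. The share of cells with a read hid much of this, at 47.0% of other and 49.2% of ASPN and CILP positive cells, while at least 5 reads were found in 20.7% (19.6 to 21.9%) and 12.6% (10.1 to 15.3%). With each cell thinned to 50000 reads, which left out 11 notochordal, 12 ASPN and CILP positive and 184 other cells, a read of SFRP1 was found in 28.8% of other, 20.6% of ASPN and CILP positive and 8.99% of notochordal cells. The same shares were 44.2%, 23.6% and 19.0% for SFRP5. The reads of notochordal cells came mostly from 2 cells, which held 50% of them.

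SFRP2 was confined to a small set of cells, with at least 5 reads in 277 of the 4683 other cells, 21 of the 660 ASPN and CILP positive cells and none of the 310 notochordal cells, where 0 allows a share of up to 0.968% (3 cells of 310) and the Clopper-Pearson interval reaches 1.18%. Its level was 17.5 rpm in other cells (15.1 to 22.4 rpm over the tags), 7.35 rpm in ASPN and CILP positive cells and 0.242 rpm, from 16 single or paired reads, in notochordal cells. Among ASPN and CILP positive cells the tags ran from 3.27 rpm in A954 to 24.6 rpm in A952, where 1 cell of 38 held at least 50% of the reads, so the direction against other cells was not the same in all tags. The log2 ratio was -1.25 over all tags and 0.71 within A952. SFRP4 had at least 5 reads in 19 cells of the whole library, 11 of them ASPN and CILP positive. Its level there, 1.84 rpm (1.66 to 2.03) against 0.246 rpm (0.217 to 0.278) in other cells, came mainly from A953 at 4.39 rpm, while A951, A952 and A954 had 0.422, 0.0945 and 0.606 rpm. Its log2 ratio was 2.90, and 1.44 without A953.

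WIF1, which binds WNT proteins through its WIF domain, differed 3.08-fold between the tags of the other cells and 1.75-fold between those of the ASPN and CILP positive cells. Other cells of A951, A952 and A954 had 372, 380 and 493 rpm, and those of A953 had 160 rpm. At least 5 reads were found in 45.6% of other cells of A953 and in 63.5 to 79.8% of those of the remaining tags. ASPN and CILP positive cells had 192, 227, 130 and 212 rpm, again with A953 the lowest. Over all tags the levels were 372 rpm in other cells, 185 rpm in ASPN and CILP positive cells (log2 ratio -1.01) and 13.8 rpm in notochordal cells (13.0 to 14.8; log2 ratio -4.75). The ratio for ASPN and CILP positive cells passed 2-fold by a small margin, and was -0.95, -0.74, -0.30 and -1.22 within A951 to A954, so that only A954 was past 2-fold. In notochordal cells the gap was far larger, with 23.8 and 11.4 rpm in A951 and A952, and 3 of 310 cells had at least 100 rpm, against 50.5% of other cells (49.1 to 52.0%). Thinned to 50000 reads, a read of WIF1 was found in 37.7% of notochordal, 68.3% of ASPN and CILP positive and 77.3% of other cells.

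**Figure D2:**
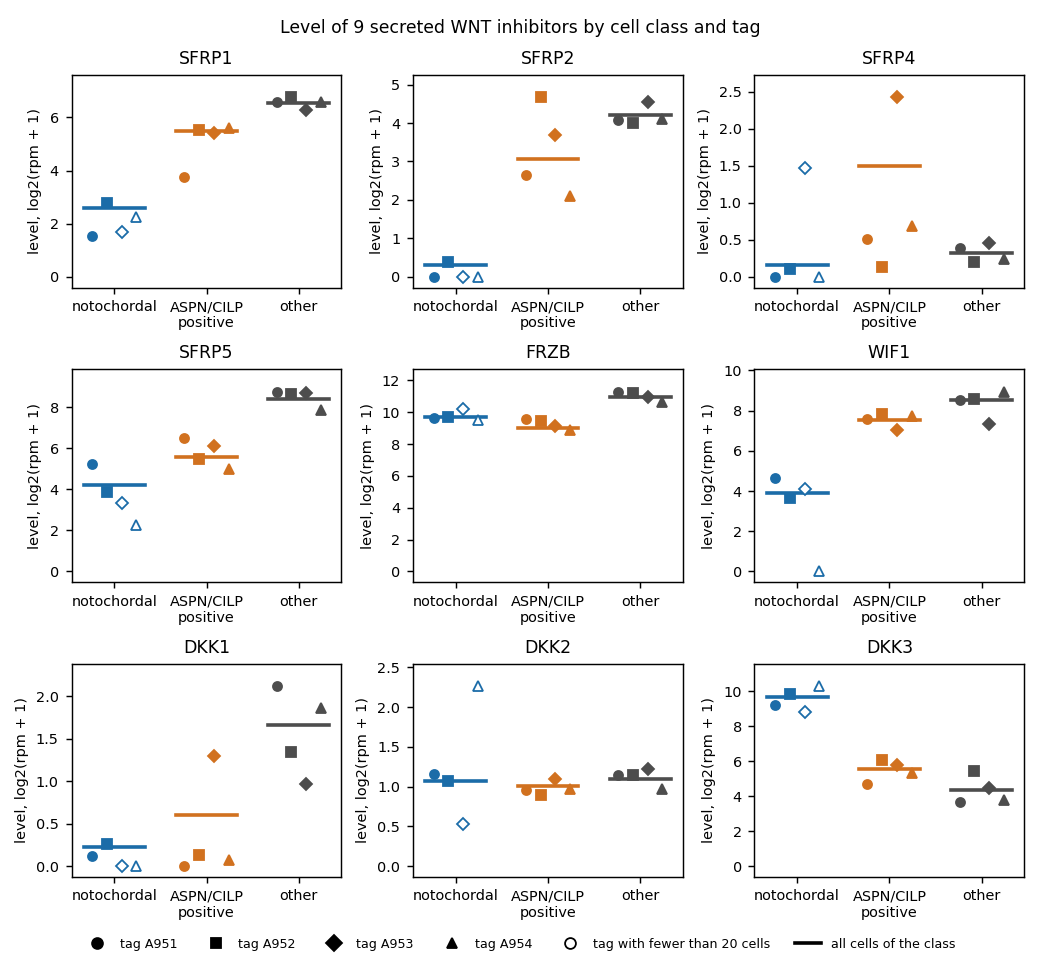
Level of each inhibitor, log2(rpm + 1), in notochordal (blue), ASPN and CILP positive (orange) and other cells (grey); bars are all cells of a class, symbols the tags A951 to A954, open where a tag had fewer than 20 cells of the class. FRZB, SFRP1, SFRP5 and WIF1 were highest in other cells, DKK3 in notochordal cells, and the bars of DKK2 lie between 1.01 and 1.14 rpm.

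DKK3, alone among the 8 inhibitors compared, was higher in notochordal cells. Its level there was 834 rpm (827 to 841), with 586, 908, 460 and 1259 rpm in A951 to A954, the last 2 from 5 and 2 cells. ASPN and CILP positive cells had 45.3 rpm (44.3 to 46.2), with 25.4, 66.5, 55.0 and 39.2 rpm by tag, and other cells 19.3 rpm (19.0 to 19.6), with 11.7, 42.9, 20.8 and 12.7 rpm. Notochordal cells of A951 and A952, the tags with at least 20 such cells, lay above every tag of the other classes. So did those of A953, whose class name is uncertain, and of A954. How many of all genes separate in this way was not computed. The log2 ratio to other cells was 5.43, a 43.2-fold difference, and DKK3 ranked 81st from the top among the 10926 genes compared. At least 5 reads were found in 78.7% of notochordal cells (73.7 to 83.1%), 15.8% of ASPN and CILP positive cells (13.1 to 18.8%) and 4.91% of other cells (4.31 to 5.57%). At least 1 read was found in 87.7%, 42.9% and 30.7%, and at 50000 reads per cell in 84.5%, 21.6% and 12.0%.

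Within the notochordal cells DKK3 was uneven, with at least 1000 rpm in 26.8% of the 310 cells and no read in 38 cells (12.3%). The high DKK3 of the other cells of A952 went with reads of the notochordal rule genes. Of those 851 cells, 35 had at least 5 reads of KRT19, up to 529, and 10 at least 5 of TBXT, up to 251, without meeting the rule for both. In that tag, 48 other cells with at least 5 reads of KRT19 and TBXT together had 543 rpm and held 60.8% of the DKK3 reads of its other cells. Over cells without a KRT19 or TBXT read, A952 had 13.8 rpm, beside 9.96, 24.7 and 14.1 rpm in A951, A953 and A954, and A953 became the highest. With the other cells restricted in this way, a choice made after seeing the data, the log2 ratio of notochordal cells was 5.71. In ASPN and CILP positive cells the ratio was 1.23 over all tags and 1.11, 0.63, 1.40 and 1.63 within A951 to A954, positive in each and under 2-fold in A952.

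**Figure D3:**
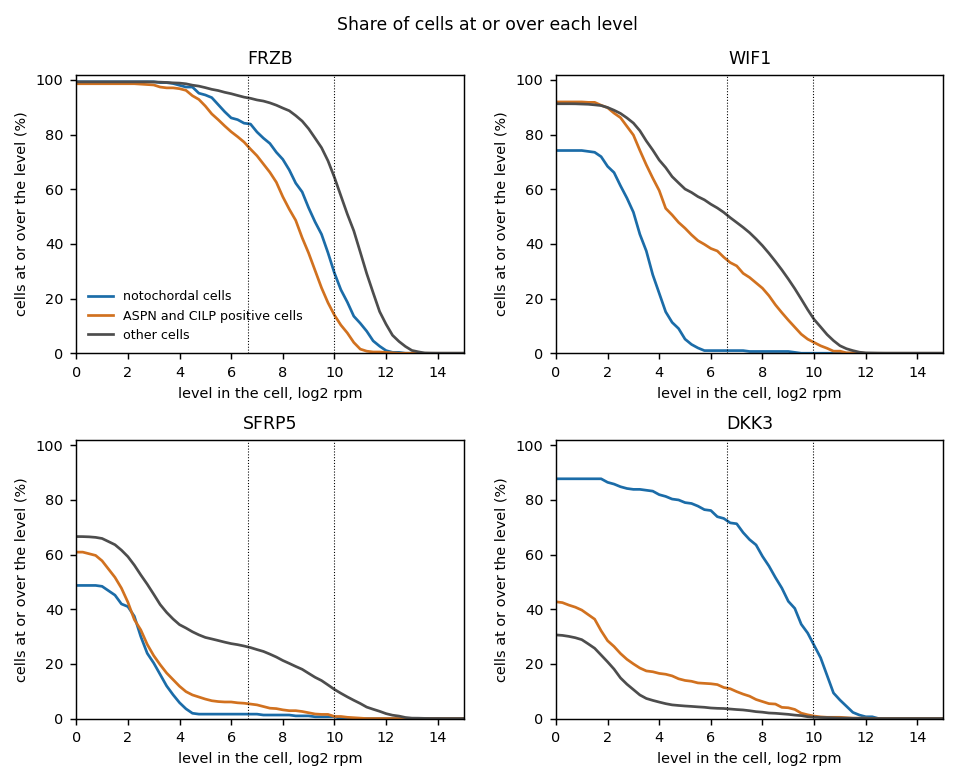
Share of cells (%) whose level of FRZB, WIF1, SFRP5 or DKK3 is at or over the log2 rpm on the horizontal axis, by class; dotted lines mark 100 and 1000 rpm. The curves of FRZB begin near 100% in each class and part at high levels, while for DKK3 72.3% of notochordal and 3.52% of other cells are at or over 100 rpm, and the curves meet near 0 at the highest levels.

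DKK1 and DKK2, the classical ligands of LRP5 and LRP6 in this family, were rare. DKK1 had at least 5 reads in 44 of the 5653 cells, of which 42 were other cells. Its level in other cells was 2.17 rpm (2.08 to 2.26), with 3.34, 1.53, 0.949 and 2.63 rpm in A951 to A954, and 6 cells held 50% of the reads. Notochordal cells had 11 reads in all (0.166 rpm) and ASPN and CILP positive cells 107 reads (0.519 rpm), 95 of them in 1 cell of A953, where the log2 ratio to other cells was above 0 (0.61). Over all tags the log2 ratio was -2.06, and it was -5.65 without A953 and -0.70 without A954. DKK2 had at least 1 read in 20.3% of notochordal, 25.3% of ASPN and CILP positive and 20.7% of other cells, but 81.9% of the cells with a read had a single read and the highest count was 7. Its level lay between 0.851 and 1.34 rpm in each class and tag with at least 20 cells. Few reads were also found for SHH and KRT19 outside the notochordal cells. SHH had at least 1 read in 7.96% of other cells and 9.84% of ASPN and CILP positive cells, and KRT19 in 10.3% and 12.6%, at the depths given above. Of the cells with a read, 85.5% and 83.1% had a single read of SHH, and 69.2% and 81.9% a single read of KRT19. In other cells KRT19 reached 529 reads.

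The tags differed more for some inhibitors than for others. Between the highest and the lowest tag of the other cells, 3 of the 8 compared were past 2-fold (DKK1 at 3.52-fold, DKK3 at 3.65-fold and WIF1 at 3.08-fold), beside 18.2% of all genes. SFRP1, SFRP2, FRZB, SFRP5 and DKK2 lay between 1.39- and 1.87-fold. Without A953 the gap of WIF1 fell to under 2-fold, and without A952 that of DKK3 did. Whether these gaps follow tissue or animal cannot be told apart, as the tags are unlabelled.

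Within the other cells the inhibitors were compared between cells with at least and under 100 rpm of CRTAC1, a cartilage matrix protein found among the genes high in ASPN and CILP positive cells. The 1529 cells with CRTAC1 had less SFRP5 (117 against 462 rpm, log2 ratio -1.98) and less FRZB (1094 against 2495 rpm, -1.19) than the 3154 cells without. Both held in each of the 4 tags, from -2.77 to -1.53 for SFRP5 and from -1.58 to -0.81 for FRZB. DKK3 was higher with CRTAC1, at 34.1 against 10.8 rpm (0.60 to 3.05 within tags). SFRP1 was at 60.6 against 111 rpm (-2.16 to -0.49 within tags) and SFRP2 at 11.8 against 20.7 rpm, both under 2-fold over all tags. SFRP2 was past 2-fold lower in A951, A952 and A954 (-1.28, -2.75 and -1.41) and at 0.14 in A953. WIF1 was at 376 against 370 rpm, with log2 ratios of -0.40 to 0.35 within tags. The rare DKK1 was at 0.419 against 3.17 rpm, a gap absent from A953. The median depth was 215147 reads in cells with CRTAC1 and 182104 in cells without, and its part in these differences was not tested. Among cells outside the ASPN and CILP rule, SFRP5, FRZB and DKK3 differed with CRTAC1 in the directions seen in ASPN and CILP positive cells. The 2 comparisons are not independent, since CRTAC1 was chosen as a gene high in ASPN and CILP positive cells. Other cells also held reads of ASPN and CILP, and cells close to the rule were not left out. The share of all genes past 2-fold by CRTAC1 was not computed, and nothing further is read from the shared directions.

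The same cells were also grouped by ID1, a target gene of BMP signalling. The 418 cells with at least 100 rpm of ID1 had log2 ratios of -0.83 for SFRP1, -0.89 for SFRP2 and -0.70 for SFRP5 to the 4265 cells without, all under 2-fold over all tags. Within tags SFRP1 ran from -1.22 to -0.22, SFRP2 from -1.44 to -0.62, SFRP5 from -1.61 to 0.04 and FRZB from -0.35 to -0.21. DKK3 was at 0.90, with tags from -3.48 to 2.73. Grouping by BMP2 itself, with 2726 cells at or over 100 rpm, left every inhibitor but DKK3 under 2-fold over all tags. The ratio of DKK3 (-1.13) came from A952 (-2.60) and A953, with A951 and A954 at 0.05 and 0.12. In A952, 48 other cells with at least 5 reads of KRT19 and TBXT together held 60.8% of the DKK3 reads. Their part in the DKK3 ratios of A952 by CRTAC1, ID1 or BMP2 was not tested. Within single tags SFRP1 (1.01 in A952), DKK1 (1.17 in A951 and -3.16 in A952) and SFRP4 (-2.48 to 3.43) also went past 2-fold.

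Pairs of inhibitors were also compared from cell to cell. Over the 4683 other cells the highest Pearson correlation of log2(rpm + 1) between any 2 of the 9 was 0.18, between SFRP1 and WIF1 (0.11 to 0.22 within tags), followed by 0.15 between SFRP5 and FRZB. These cells share 1 library and differ in depth, and values of this size are no finding. Of the 277 other cells with at least 5 reads of SFRP2, 107 (38.6%) also had at least 5 of SFRP5 and 221 (79.8%) of WIF1. Among the other cells with fewer SFRP2 reads these shares were 31.3% and 64.8%. At least 5 reads of SFRP1 were found in 83 of the 277 (30.0%), against 20.1%. DKK3 went the other way, with 3 cells (1.08%) against 5.15%. The level of SFRP5 was 355 rpm with and 335 rpm without SFRP2, lower with it in A952 and A954, and that of WIF1 was 607 and 355 rpm. The median depth was 220530 and 191170 reads, and its part in these shares was not tested. A median of 2 of the 9 inhibitors was found with at least 5 reads in each class.

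The genes most like each inhibitor over all 5653 cells, among 11068 genes detected in at least 5% of cells, were as follows. DKK3 went with KRT19 (r = 0.54), TBXT (0.51) and NRN1 (0.50), the first pair being the rule genes of the notochordal cells, and within other cells the same values were 0.19, 0.07 and 0.20. FRZB went with CPXM1 (0.44) and the cartilage collagens COL11A1 (0.39) and COL9A2 (0.38), and SFRP5 also with CPXM1 (0.35), then ECRG4 and CPZ (both 0.29). WIF1 went with FBLN7 (0.41), COL14A1 (0.35) and DCN (0.35), genes of extracellular matrix proteins, and SFRP1 with APOD (0.29), CP (0.28) and FBLN7 (0.26). For SFRP2 and DKK2 the highest values were 0.13 and 0.08, and SFRP4 and DKK1 were in too few cells to be compared.

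The rest of the WNT pathway was read beside the inhibitors from lists of its parts. The counts past 2-fold in these short lists stand beside the shares of all genes given above, 25.2% higher and 13.9% lower in notochordal cells, and 2.23% higher and 6.90% lower in ASPN and CILP positive cells, and nothing is read from them about a list as a whole. Among other antagonists outside the cell, of 8 compared, 3 were higher and 3 lower in notochordal cells. APCDD1, a membrane protein that binds WNT and LRP proteins, was at 135 against 21.0 rpm in other cells, with GPC3 (log2 ratio 2.39) and the WNT deacylase NOTUM (1.02) also higher. DKK4 (-5.15), SOST, which binds LRP5 and LRP6 (-4.26), and KREMEN1, a receptor of DKK proteins (-1.32), were lower. Few cells carried some of these: at least 5 reads were found in 2.16% of other cells for DKK4 and 4.98% for SOST. For NOTUM the share was 2.26% of notochordal cells. SOSTDC1, under the 1 rpm limit, was at 7.20 against 0.734 rpm (3.29), with at least 5 reads in 3.23% of notochordal cells. In ASPN and CILP positive cells NOTUM (1.44) was higher and DKK4 (-2.33) lower.

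The WNT ligands had a summed level of 24.1, 42.6 and 36.2 rpm over 17 genes in notochordal, ASPN and CILP positive and other cells. In A951 to A954 the sum was 23.6, 17.4, 19.6 and 59.9 rpm in ASPN and CILP positive cells. Other cells had 29.6, 41.2, 42.7 and 33.4 rpm, so only in A954 was the sum of the ASPN and CILP positive cells higher. Notochordal cells had 41.3 rpm in A951, above the other cells, and 20.2 rpm in A952, below them. Of 7 compared, 3 were lower in notochordal cells, WNT1 (-5.59), WNT16 (-4.65) and WNT11 (-4.13), and none of the 7 was higher. At least 5 reads of WNT1 were found in 1.13% of other cells. Among ligands under the 1 rpm limit, WNT4 was at 5.12 rpm in notochordal against 0.636 rpm in other cells (3.01). WNT2B, WNT5A, WNT8A and WNT8B were also past 2-fold higher there, from few reads, and WNT9B was lower. WNT16 was higher in ASPN and CILP positive cells (2.19), at 13.9 against 3.05 rpm, and WNT10B (-1.89) and WNT3 (-1.65) were lower. WLS, the carrier that brings WNT proteins to the cell surface, was at 29.2 rpm in notochordal cells against 68.3 rpm in other cells (-1.23).

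Of 9 receptors compared, 4 Frizzled genes were higher in notochordal cells, led by FZD3 (4.80), FZD1 (2.47) and FZD4 (1.84), and ROR2 (-3.12) and RYK, at 82.3 against 179 rpm, were lower. FZD3 was at 12.6 against 0.452 rpm. At least 5 reads were found in 6.13% of notochordal cells for FZD3, 4.52% for FZD1 and 1.61% for FZD4, so these ratios rest on few cells. FZD4 was also higher in ASPN and CILP positive cells (1.96), where ROR1 was lower (-1.10). LRP6 was level at 25.7, 27.5 and 26.5 rpm in notochordal, ASPN and CILP positive and other cells, and LRP5 was not analysed here. Of 3 R-spondin and LGR genes compared, RSPO2 (1.19) and LGR4 (1.04) were higher and LGR6 (-1.28) lower in notochordal cells. None was past 2-fold in ASPN and CILP positive cells. RSPO2 was at 2.16 against 0.949 rpm, with at least 5 reads in 0.968% of notochordal cells.

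Inside the cell, 3 of 11 pathway genes were higher in notochordal cells, near the 25.2% of all genes, namely PYGO2 (1.89), APC (1.54) and DVL2, and none was past 2-fold in ASPN and CILP positive cells. CTNNB1, which encodes beta-catenin, was at 121, 174 and 228 rpm in notochordal, ASPN and CILP positive and other cells. Of 7 genes known as targets or feedback regulators of beta-catenin, NKD1 (-3.55), AXIN2 (-1.96) and CCND1 (-1.76) were lower in notochordal cells and TNFRSF19 (1.14) was higher. AXIN2, a common readout of the pathway, stood at 1.73 rpm in notochordal, 12.5 rpm in ASPN and CILP positive and 6.71 rpm in other cells. Of the genes compared in this list, NKD1 was past 2-fold in ASPN and CILP positive cells (-1.64). NKD2, under the 1 rpm limit, was at 6.63 rpm in notochordal against 0.711 rpm in other cells (3.22). In ASPN and CILP positive cells NKD2 was at 0.257 rpm (-1.47).

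**Figure D4:**
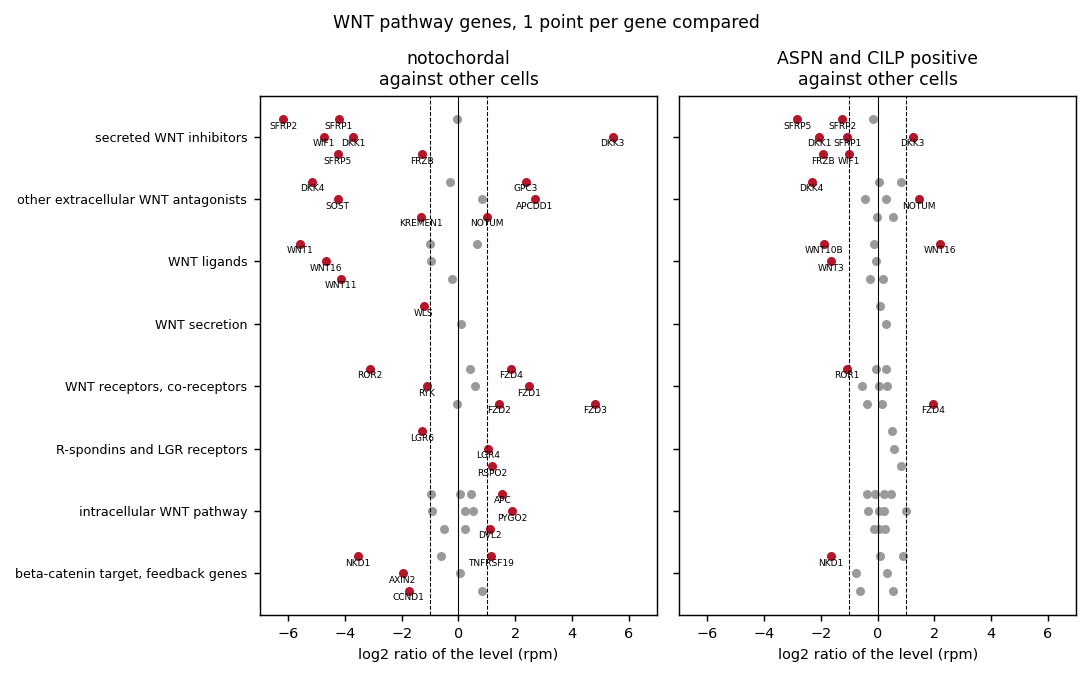
Log2 ratio of the level against other cells for the genes of each WNT pathway list with at least 1 rpm, 1 point per gene, in notochordal cells (left) and in ASPN and CILP positive cells (right); red points are past 2-fold (dashed lines) and named. In the right panel most points outside the secreted inhibitors lie within 2-fold, and in the left panel the lists spread to both sides.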

How the data were processed

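Reads of the pooled AC and NP library were aligned by the authors with HISAT2 (2.2.1) and counted per gene with featureCounts (2.0.2, stranded, whole genes, multi-mapping and overlapping reads allowed). The deposited values are counts of reads, without molecular identifiers. Cells with a single tag, 200 to 9000 genes and under 5% mitochondrial reads were kept, which removed 21. Cells with several tags (42) were left out as doublets, and doublets within a tag could not be seen. In all, 1407 columns of cells were not used, of which 1358 belong to another deposited matrix that the labels name for no sample, 42 are the doublets and 7 had no tag. Levels, ratios and intervals were computed with Python 3.11.15, numpy 2.4.6 and scipy 1.17.1, and drawn with matplotlib 3.10.9. For ratios, a class under 3 reads in all was set to 3. Correlations used log2(rpm + 1). On simulated counts, 100% of 200 changed genes among 10926 and 0% of unchanged genes passed 2-fold in each comparison. As the changes were planted, this checks the computation only and says nothing about the differences between the real classes.

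The inhibitors and gene lists were chosen with earlier results of these data known. In each other WNT list, up to 3 genes per direction past 2-fold were named, as were the 3 genes most like each inhibitor. LRP6, CTNNB1 and the cells with both SFRP2 and SFRP1, SFRP5, WIF1 or DKK3 were named after their values were seen. Alternatives changed the cell filters, class rules, weights, gene filter and tags.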

Additional observations from a re-analysis of the deposited data

How the results depend on the processing

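Against other cells, 7 of the 8 inhibitors compared were past 2-fold in notochordal cells under each of the 14 alternatives run for this count but the looser KRT19 and TBXT rule, which gave 6 (the gene filters were run for the counts over all genes alone). In ASPN and CILP positive cells the count of 7 ranged from 4 to 7 when a tag was left out (4 without A954, 25% of them higher in place of 14.3%) and from 5 to 8 otherwise. DKK3 was higher in both classes under all 14 alternatives, at 4.76 to 5.71 and 1.08 to 1.59. SFRP4 in notochordal cells, with 8 reads in all, turned from -1.02 to 0.86 with equally weighted tags, and ranged from -1.71 to 0.042 when a tag was left out. Of all genes, 4265 were past 2-fold in notochordal cells and 2284 among genes with at least 10 rpm. In ASPN and CILP positive cells 998 were, 320 with at least 10 rpm, 2177 with any read and 943 to 1586 when a tag was left out. With fewer or more genes compared those counts move by construction, and other causes were not tested. Without A952, which held 236 of the 310 notochordal cells, the log2 ratio of SFRP1 was -5.52 and that of SFRP5 -3.33. Of the inhibitors, SFRP4, DKK1 and DKK2 had the fewest reads over all cells and tags, with 650, 2434 and 1498, and depth limits their values the most.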

Other observations

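Other cells with at least 5 reads of IBSP, which encodes bone sialoprotein, were looked at after the values were seen. They numbered 57 (9, 14, 20 and 14 in A951 to A954), with a median of 324850 reads and 4906 genes against 191265 reads and 3715 genes in the cells without. FRZB was at 5411 rpm in them, against 1909 rpm. The tags A951 to A954 had 6531, 5326, 5353 and 5019 rpm with IBSP and 2443, 2320, 1871 and 1549 rpm without. How many of all genes differ in this way was not computed. WIF1 was at 104 against 378 rpm, SFRP1 at 21.4 against 94.5 rpm and DKK3 at 1.77 against 19.7 rpm. PRG4, the lubricin of the joint surface, was at 891 against 11599 rpm, and COL9A1, a cartilage collagen, at 10463 against 5553 rpm. The part of depth in these values was not tested. A grouping by at least 5 reads of COL10A1 was run in the same way, with 70 cells. There FRZB was at 2233 against 1979 rpm and SFRP1 at 33.9 against 94.2 rpm.

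The 42 other cells with at least 5 reads of DKK1, also chosen after the values were seen, had 1122 rpm of SFRP5, against 329 rpm in the cells without. By tag, A951 to A954 had 2251, 2244, 455 and 409 rpm against 412, 373, 408 and 230 rpm, from 8, 8, 6 and 20 cells. The gap was wide in A951 and A952 and narrow in A953. At least 5 reads of SFRP5 were found in 26 of the 42 (61.9%), against 31.5% of the rest. FRZB was at 3506 against 1969 rpm and PRG4 at 741 against 11472 rpm.

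Among notochordal cells, the 110 with an SHH read had 1111 rpm of DKK3 and 691 rpm of FRZB, and the 200 without had 626 and 917 rpm. Of the 110 cells, 93 carried tag A952, 16 A951 and 1 A953. DKK3 was at 908 rpm in all notochordal cells of A952 and at 586 rpm in those of A951. The median depth was 240300 reads in the 110 cells and 165790 in the 200. The parts of depth and tag in the difference were not tested.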
